A study of Xenopus tropicalis with 13 samples.

Results

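The 379 gene segments described here are the medium-sized bins of the stage 15 list deposited by the authors, those of 150 to under 600 bases with at least 1 read in uninjected embryos. A bin is a stretch of a gene in which reads were counted separately. Each was listed because its usage, a fitted score within its gene, was higher in embryos injected with a morpholino (MO) than in uninjected ones. The list holds 1429 bins, of which 450 are of this width and 71 of these had no read in any uninjected embryo and were not included. The members were therefore chosen on the same counts that separate the 2 groups, and their levels and ratios are a description with no test.

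Polyadenylated RNA was sequenced from the frog Xenopus tropicalis, with each library made from 1 whole embryo. At stage 15, an early neurula, there were 4 uninjected embryos (columns UC1 to UC4) and 3 injected with an MO against Taf15 (MO1 to MO3). One of the 4 uninjected embryos carries stage 15 in its title and stage label but stage 10 in its description, and it was taken as stage 15. At stage 10, the early gastrula, there were 3 uninjected and 3 MO-injected embryos. Whether the injected oligonucleotide blocked translation or splicing is not stated in the labels. Sample titles hold the token trns1MO, whose meaning is not explained. No strain is given, and no embryo labelled as carrying a mismatch oligonucleotide was among the 13 analysed, so the controls had no injection at all. The column numbers are not tied by the labels to an individual embryo, and the titles fall into 2 naming styles that hold both groups, so a batch cannot be modelled. The depth of the libraries is unknown, because only selected bins and genes were listed, and the level of Taf15 itself was not analysed here. No markers of a cell type were checked in these whole embryos, in which fewer cells of a type and less RNA per cell cannot be told apart.

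In a maturing transcript, introns are removed by the spliceosome and exons are joined, and an intron that stays in a polyadenylated transcript gives reads where few are usually found. Retention of introns and use of other exons or ends are regulated by RNA-binding proteins. Taf15 belongs to the FET family of RNA-binding proteins, which associate with nascent transcripts and with RNA polymerase II. The tables do not say whether a bin is exonic or intronic, and the coordinates below are on scaffolds as the authors' files name them, and the genome build is not named in any of the sources.

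The bins had a median width of 282 bases (150 to 598) and lay in 336 host genes, 280 with a gene symbol and 56 with an identifier of the Xetro form. A single member lay in 306 of the host genes, 2 members in each of 23, and 3 or more in 7. There were 177 bins on the plus and 202 on the minus strand, and 229 bins belonged to 1 transcript model while 150 were shared by 2 or more. The first bin of a gene by number made up 9.50% of the members and 9.94% of the whole list. At the width limits, kat2a and Xetro.C00434 each had a member of 150 bases, and a bin of cops5 with 149 bases fell just outside. Its counts were 2, 10 and 9 in MO-injected and 1, 0, 0 and 1 in uninjected embryos, whereas the kat2a bin had 12, 9 and 13 against 1, 2, 4 and 2. At the upper limit the bins of herpud1 and rpl22l1 had 598 bases, and the nearest excluded bin, in rapgef2, had 602.

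In uninjected embryos most of these bins held few reads. The median member had 0.788 reads per 100 bases in the mean of the 4 uninjected embryos (interquartile range 0.312 to 1.92) and 6.10 in the mean of the 3 MO-injected embryos (2.60 to 15.6). The median over members in a single embryo was 0.628 ± 0.0992 reads per 100 bases in uninjected embryos (SD, n = 4, range 0.506 to 0.733) and 5.82 ± 0.865 in MO-injected embryos (n = 3, 4.88 to 6.58). Every MO-injected embryo lay above every uninjected one, which the choice of the members favours. Members without a read made up 26.3% ± 6.27 of all members in an uninjected embryo (n = 4) and 1.41% ± 1.10 in an MO-injected embryo (n = 3).

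**Figure D1:**
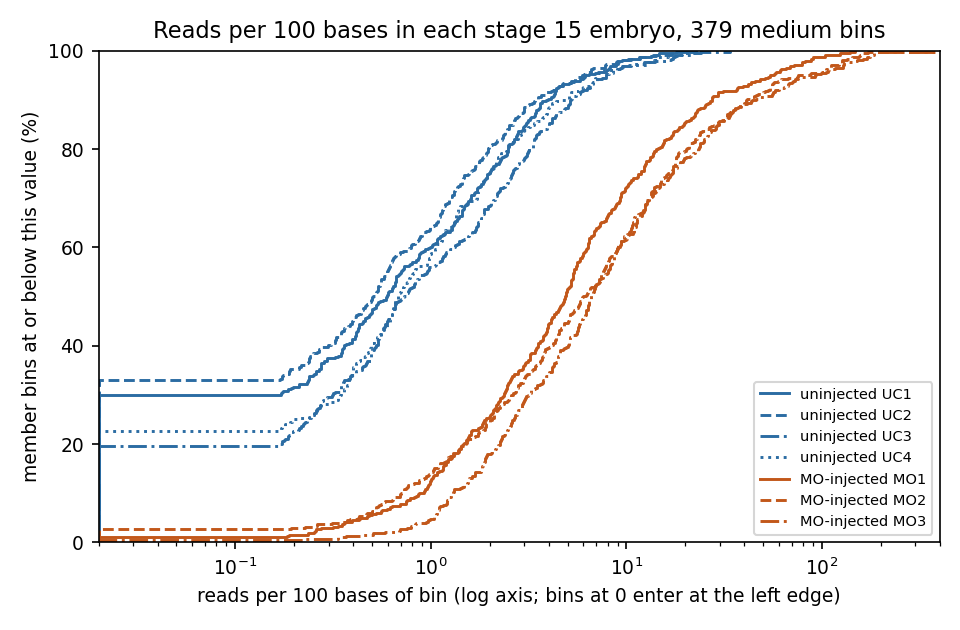
Cumulative share of the 379 medium bins (vertical axis, percent) at or below a given number of reads per 100 bases (horizontal log axis) in each of the 4 uninjected and 3 MO-injected stage 15 embryos. The curves of the uninjected embryos start at 19.5% to 33.0%, the share of bins without a read, and all lie to the left of the 3 MO-injected curves, of which MO1 lies furthest left over the upper part of the range.

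Summed over the members, the uninjected embryos had 1795, 1450, 2205 and 1989 reads (UC1 to UC4) and the MO-injected embryos 12184, 17396 and 19497 (MO1 to MO3). MO1 was the lowest of the injected embryos, and UC2 the lowest of the uninjected. Of the reads in all listed bins with an uninjected read, these sums were 28.5% ± 1.59 in uninjected embryos (n = 4). In MO-injected embryos they were 24.5% ± 0.464 (n = 3). The 10 members with most reads held between 22.1% and 29.1% of an embryo's member reads, so a few bins weigh on each sum.

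Bins of other widths give a setting for these densities. The median over the 494 listed bins under 150 bases with an uninjected read was 1.76 ± 0.658 reads per 100 bases in a single uninjected embryo (n = 4), and over the 327 bins of 600 bases upward it was 0.247 ± 0.0510 (n = 4). How a read that spans 2 bins was counted is not stated, and such reads weigh more on short bins, so the densities of the classes are set side by side without a comparison. Within the medium class, width and reads per 100 bases had a Spearman correlation of -0.22 in uninjected and -0.26 in MO-injected embryos across the 379 bins, which share libraries and are not replicates.

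The threshold of 1 uninjected read was met narrowly by many members. There were 41 members with exactly 1 read over the 4 uninjected embryos, 99 with 1 to 3 reads, 178 with 4 to 19 and 102 with 20 or more. A read was present in all 4 uninjected embryos in 164 members, in 3 in 85, in 2 in 76 and in 1 embryo in 54. A mean of at least 10 uninjected reads was reached by 47 members, whereas 252 reached a mean of 10 and 46 a mean of 100 in MO-injected embryos.

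The listing itself covered 0.744% of the bins that the authors tested at stage 15, a share that counts at least 192075 tested bins and is an upper limit for that reason. The ratio of mean raw counts, MO-injected over uninjected with 0.5 added to each mean, had a median of 6.05-fold (2.60 on the log2 scale, interquartile range 1.98 to 3.28). It reached 2-fold in 356 members and 10-fold in 94, and it was under 1 in 7. The deposited ratio of usage, the share of the gene's reads, was smaller in the middle of the list, with a median log2 ratio of 1.56 (1.00 to 4.27). Both ratios were ordered alike only in part, with a Spearman correlation of 0.54 across the 379 bins. Raw ratios were not corrected for depth, which is unknown.

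**Figure D2:**
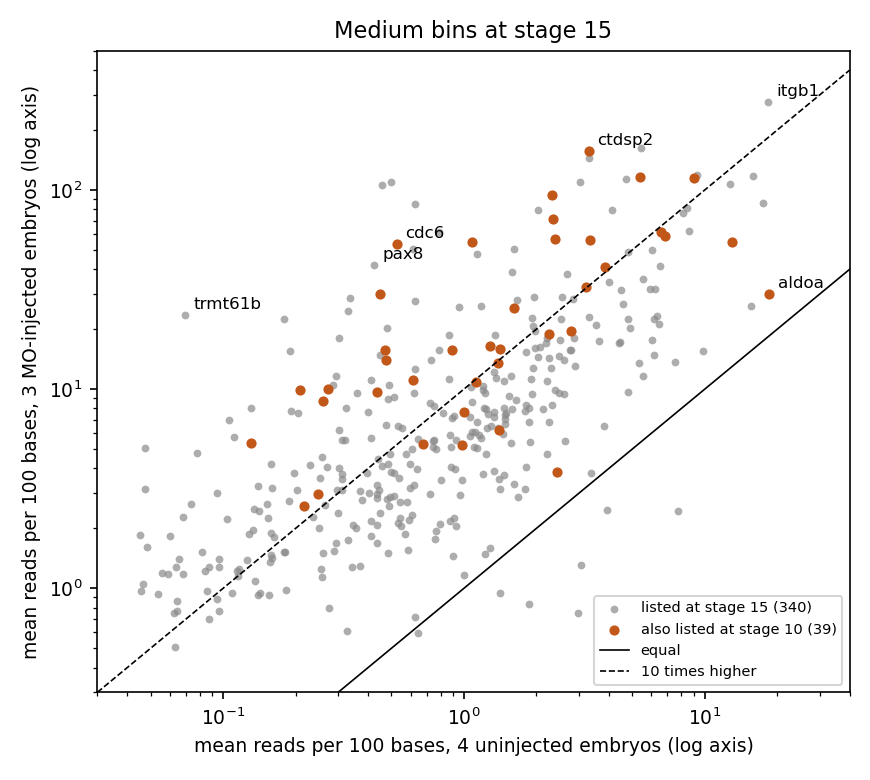
Mean reads per 100 bases of each medium bin in the 3 MO-injected embryos (vertical log axis) against the 4 uninjected embryos (horizontal log axis), with the 39 bins that were also listed at stage 10 in orange. The densities of the groups had a Spearman correlation of 0.68 across bins, and itgb1 has the highest MO-injected density at 276. With 0.5 added to each mean count, 94 bins reach 10-fold. The points are drawn without the 0.5, so more bins than these lie above the 10-fold line.

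The lowest MO-injected count exceeded the highest uninjected count in 270 members, or 71.2%, against 75.5% of all listed stage 15 bins and 75.1% of those with an uninjected read. By width, 367 of 494 short bins (74.3%) and 264 of 327 long bins (80.7%) were separated in this way. In 44 further members the lowest injected count equalled the highest uninjected one. Separation was found in 65 of the 99 members with 1 to 3 uninjected reads, in 127 of 178 with 4 to 19 and in 78 of 102 with 20 or more. Since listing used the same counts, nothing is read from these shares.

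The member with the smallest adjusted p lay in ctdsp2, which encodes a small phosphatase that acts on the C-terminal domain of RNA polymerase II. Bin E005 of ctdsp2 (scaffold_2, 85478869 to 85479057, minus strand, 189 bases) had 278, 270 and 339 reads in MO-injected embryos and 8, 2, 10 and 5 in uninjected embryos. The groups did not overlap, and the densities were 156 ± 19.97 reads per 100 bases (SD, n = 3) and 3.31 ± 1.85 (n = 4), a raw ratio of 43.9. In the authors' deposited table its adjusted p is 3.18e-241.

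No other host gene had as many members as ctdsp2, with 6 medium bins among its 22 listed bins. They lay between 85478869 and 85499158 on scaffold_2, and none overlapped between the groups. Bin E009 had 197, 250 and 240 reads against 4, 4, 8 and 5, and bin E012 had 160, 165 and 198 against 7, 8, 8 and 6. Bin E008, at 251, 310 and 315 reads against 5, 3, 22 and 9, was the least even in uninjected embryos, and without UC3 its raw ratio moved from 28.5 to 47.4. The MO-injected embryos differed little from each other in these bins, with an SD over mean between 0.118 and 0.247. The authors' deposited table of retained introns gives the number 22 for ctdsp2 at stage 15, with the position described as throughout the whole transcript. Its listed bins also number 22, and whether the deposited number counts separate introns or bins is not stated.

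Next by adjusted p, at 4.28e-154 in the authors' deposited table, was bin E011 of pax8, a paired-box transcription factor of kidney, thyroid and inner ear development. This bin of 474 bases (scaffold_3, 11850401 to 11850874, minus strand) had 252, 177 and 165 reads in MO-injected embryos. The uninjected embryos had 4, 0, 0 and 4, so that UC2 and UC3 held none. The densities were 41.8 ± 9.95 (n = 3) and 0.422 ± 0.487 reads per 100 bases (n = 4), and the authors' deposited table lists 1 retained intron in pax8.

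Complement component c5, made mainly in liver in mammals, had bin E011 of 203 bases with 80, 96 and 133 reads in MO-injected and 0, 2, 3 and 0 in uninjected embryos. The bin E002 of vsig8, a membrane protein of the immunoglobulin superfamily, had 92, 63 and 129 reads against 0, 1, 0 and 2. Both bins were separated by a wide gap, and both hosts have 1 retained intron at stage 15 in the authors' deposited table. With 3 uninjected reads in all, the ratio of means for vsig8 was 126 with an exact 95% interval of 42.8 to 616. Intervals of this kind cover counting error only, PCR copies are not separate molecules, and a difference in depth between the groups, which is unknown, would shift both the ratio and its interval.

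The 10 members with the smallest adjusted p were completed by 2 more bins of ctdsp2, by actr3 and by trmt61b. Actr3 encodes a subunit of the Arp2/3 complex, which branches actin filaments, and its 3 listed bins were all medium bins. Bin E006 had 289, 189 and 220 reads in MO-injected embryos and 14, 26, 32 and 19 in uninjected embryos. The neighbouring E005 had 174, 81 and 118 against 11, 14, 18 and 15, and E004 had 196, 83 and 120 against 13, 17, 17 and 10. In each of these bins MO1 was the highest embryo, and the groups were apart. E005 ends at base 4708 of scaffold_777 and E006 starts at 4709, so a read can lie in both. In trmt61b, a methyltransferase of mitochondrial tRNA, bin E002 had 77, 73 and 103 reads against a single read, in UC3. Its raw ratio was 113 with the 0.5 added. Without the 0.5, the ratio of means was 337, with an exact 95% interval of 60.0 to 13376.

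**Figure D3:**
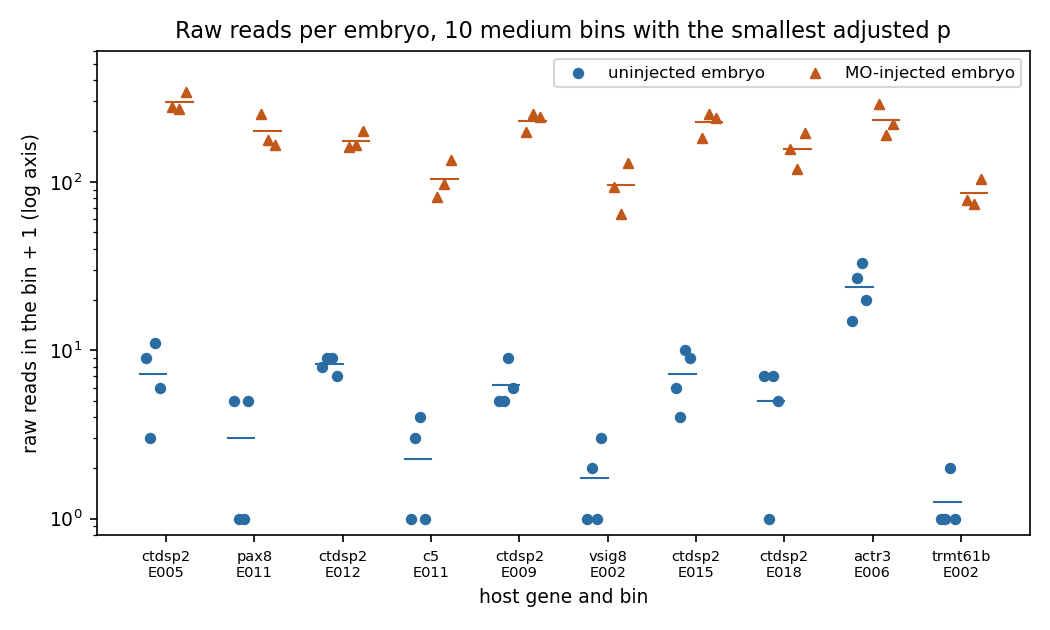
Raw reads plus 1 (log axis) in each uninjected (circles) and MO-injected (triangles) stage 15 embryo for the 10 medium bins with the smallest deposited adjusted p, with bars at the group means plus 1. No group overlaps with the other in these bins, the injected embryos lie between 63 and 339 reads, and the uninjected embryos between 0 and 32.

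The member with most reads per base in uninjected embryos was bin E007 of aldoa, the glycolytic aldolase, with 19, 28, 39 and 35 reads in uninjected and 37, 33 and 77 in MO-injected embryos. The groups overlapped, and the densities were 18.6 ± 5.38 (n = 4) and 30.1 ± 14.9 reads per 100 bases (n = 3). Bin E003 of itgb1, the integrin beta-1 subunit of matrix receptors, followed with 81, 48, 65 and 67 uninjected reads.

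Itgb1 also had the highest density in MO-injected embryos, and there the embryos were far apart. Its bin held 93 reads in MO1, 1403 in MO2 and 1465 in MO3, so that MO1 stood close to the uninjected embryos and the other 2 were over 10 times higher. The mean of 276 ± 216 reads per 100 bases (n = 3) rests on MO2 and MO3. The authors' deposited table gives it an adjusted p of 0.0249, much larger than those of the bins above.

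Other members with high uninjected density were bins of dync1h1, nrbp1, cd38, neo1 and cpne3. The heavy chain of cytoplasmic dynein, dync1h1, had 16, 23, 66 and 32 uninjected reads in bin E056 and 94, 218 and 196 in MO-injected embryos, so that UC3 approached MO1 without reaching it. The 2 bins of nrbp1, E007 and E004, had uninjected means of 15.8 and 12.7 reads per 100 bases and MO-injected means of 117 and 107. The ectoenzyme gene cd38 had 50, 38, 22 and 64 uninjected reads against 66, 51 and 103, and its groups overlapped. In neo1, the receptor neogenin, bin E024 had 65, 25, 88 and 59 reads against 247, 243 and 263, the injected embryos being nearly equal (SD over mean 0.0422). Among the highest injected densities were also bin E008 of cab39, a scaffold of the LKB1 kinase, with 151, 346 and 284 reads against 9, 13, 38 and 21, and bin E001 of the ribosomal protein gene rpl28, with 232, 411 and 473 against 43, 9, 21 and 44.

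Among hosts with several members, tars2, which encodes a mitochondrial threonyl-tRNA synthetase, had 4 medium bins among 14 listed, and pdcd7, a component of the minor spliceosome in human cells, had 3 of 7. In pdcd7 bin E008 the counts were 27, 35 and 64 in MO-injected and 0, 3, 2 and 0 in uninjected embryos, and the adjoining E007 had 11, 26 and 32 against 0, 3, 2 and 0. MO3 was highest in both, and UC1 and UC4 had no read. In tars2 bin E053 the counts were 16, 64 and 17 against 9, 4, 1 and 2, so that MO2 alone was well above the uninjected range, and the raw ratio of 7.30 moved to 3.78 without MO2 and to 11.6 without UC1. The adaptor subunit gene ap3s1 had 3 medium bins of 20 listed, with 1 to 16 reads in MO-injected and 0 to 3 in uninjected embryos. Of the 30 host genes with 2 or more members, 14 had members with consecutive bin numbers, where reads may be shared.

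Among the members, 1.32% were on the FGF and ERK list, 0.528% on the Wnt list, 0.792% on the BMP, Nodal and TGF-beta list and 0.792% on the Notch and Hedgehog list. Of all listed bins with an uninjected read the shares were 0.917%, 0.333%, 0.417% and 0.25%. Shares of the other lists are given further below, some of them lower among the members. The ligand gene wnt3a, whose product acts through beta-catenin, had bin E003 with 22, 28 and 33 reads against 1, 0, 1 and 1. The ligand bmp7.1 had bin E010 with 54, 67 and 80 reads against 1, 0, 6 and 9, and bmper, a secreted BMP-binding protein, had 43, 67 and 64 against 11, 12, 12 and 4. All 3 bins were separated, although without UC4 the ratio of bmp7.1 moved from 15 to 23.8. The Notch ligands jag1 and dll4 differed: bin E027 of jag1 had 54, 36 and 55 reads against 6, 1, 2 and 2, while bin E008 of dll4 had 7, 5 and 14 against 1, 0, 0 and 5 and its lowest injected count equalled the highest uninjected one. The Hes-family repressor gene hes2 had 8, 11 and 23 reads in bin E003 against 8, 7, 0 and 3, a tie between the groups.

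Ets1 and ets2, ETS transcription factors that act downstream of FGF and ERK signalling, gave the larger part of that pathway's list. Bin E011 of ets1 had 157, 167 and 138 reads in MO-injected and 8, 3, 9 and 6 in uninjected embryos. Bin E009 of ets2 had 74, 121 and 70 against 3, 1, 3 and 0, and bin E007 had 78, 163 and 116 against 10, 12, 16 and 7. The injected embryos were close to each other in ets1 (SD over mean 0.0957), and all 3 bins were apart. The exchange factor gene sos1, whose product activates Ras, had 2, 16 and 5 reads in bin E001 against 1 read in UC2.

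Of the 15 lists of host genes by role, 110 members were on at least 1, and 201 of the 311 members with a symbol were on none. Usage of every member was higher in MO-injected embryos by the rule, and the median raw log2 ratios are set beside 2.60 over all members, the counts of separated bins beside 71.2% of the members and 75.5% of all listed bins. The FGF and ERK list (5 bins, 4 separated) had a median of 3.44, Wnt (2 bins, 2 separated) 3.34, BMP, Nodal and TGF-beta (3 bins, 3 separated) 2.80 and Notch and Hedgehog (3 bins, 1 separated) 2.20. Patterning and lineage transcription factors (8 bins, 6 separated) had 3.01, and kinases and phosphatases (13 bins, 9 separated), 6 of them from ctdsp2, had 3.89. RNA-binding and splicing factors (11 bins, all separated) had 2.21, ubiquitin and protein turnover (12 bins, 9 separated) 2.46, and small GTPases and their regulators (12 bins, 7 separated) 2.48. The cytoskeleton list (11 bins, 9 separated) had 2.29, and matrix, adhesion and guidance (7 bins, 3 separated) 2.30. Cell cycle, DNA repair and p53 (6 bins, 5 separated) had 2.45. The chromatin list, whose only bin was that of kat2a and was separated, had 2.11. The lists do not hold every member of a role. Membrane transporters and channels (14 bins, 4 separated) had 2.02, and metabolic enzymes (3 bins, 1 separated) had 1.24. Shares of members and of all listed bins with an uninjected read were 2.11% and 1.67% for patterning factors. They were 2.90% and 2.17% for RNA-binding, 3.17% and 2.67% for GTPases, and 3.17% and 3.08% for ubiquitin. Matrix had 1.85% and 1.25%, cell cycle 1.58% and 1.17%, and cytoskeleton 2.90% and 2.92%. Chromatin had 0.264% and 1.25%, kinases 3.43% and 4.0%, transporters 3.69% and 5.0%, and metabolic enzymes 0.792% and 1.17%.

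Among the RNA-binding factors, eif4g3, a translation initiation scaffold, had 62, 114 and 137 reads in bin E019 against 0, 0, 3 and 4. The splicing factors hnrnpm and srsf4 were read more deeply in uninjected embryos, hnrnpm E011 at 107, 113 and 74 against 15, 3, 11 and 10, and srsf4 E010 at 267, 156 and 320 against 24, 13, 24 and 42. The injected range lay above the uninjected one in each of the 3. Puf60, another splicing factor that was on no list, had 72, 91 and 110 reads in bin E010 against 4, 26, 15 and 7.

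Among patterning factors other than pax8, the homeobox gene meis1 had 77, 52 and 74 reads in bin E003 against 6, 2, 6 and 5. The Iroquois gene irx2 had 56, 58 and 43 reads in bin E007 against 11, 4, 5 and 5, and the zinc finger gene myt1, of the neural lineage, had 47, 73 and 166 in bin E027 against 4, 15, 14 and 11. The groups were apart in all 3, but for myt1 MO3 was far above the other embryos and the ratio without it moved from 8.33 to 5.26.

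The replication licensing factor cdc6 had 34, 216 and 208 reads in bin E004 against 1, 0, 1 and 4. MO1 was far below the other injected embryos and still above the uninjected range, and without UC4 the ratio of 76.6 moved to 131. The sodium-coupled transporter gene slc5a8 had 76, 350 and 196 reads in bin E012 against 4, 6, 13 and 20, with MO2 the highest. The small GTPase gene rhoa.2 had 143, 89 and 370 reads in bin E006 against 8, 15, 3 and 7, and without MO3 the ratio of 22.99 moved to 13.3.

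Between embryos of a group, the SD relative to the mean was larger in uninjected embryos, where counts were low and counting error weighs more. The SD over mean of the raw counts had a median over members of 0.861 in the uninjected and 0.480 in the MO-injected embryos. In uninjected embryos the SD was below the value that counting error alone gives in 86 members, equal to it in 47 and above it in 246. The 41 members with exactly 1 uninjected read equal that value by arithmetic, so nothing is read from them. In MO-injected embryos the SD was below in 66, equal in 9 and above in 304. These counts were not scaled to embryo totals, and unequal totals also raise the SD. Reads in all listed bins ranged from 4922 to 8389 in uninjected and from 50451 to 83767 in MO-injected embryos. The members above the value therefore do not show spread beyond counting error in single bins. Pairs of uninjected embryos gave a chi-square per degree of freedom of 1.99 to 2.75 over the member bins, where counting error alone gives about 1. The pair MO2 and MO3 gave 5.88, and the pairs with MO1 gave 9.62 and 10.1, so no embryo repeated another. Where spread exceeds counting error, this statistic rises with the number of reads, which was larger in MO-injected embryos. Its values are therefore not compared between the groups.

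**Figure D4:**
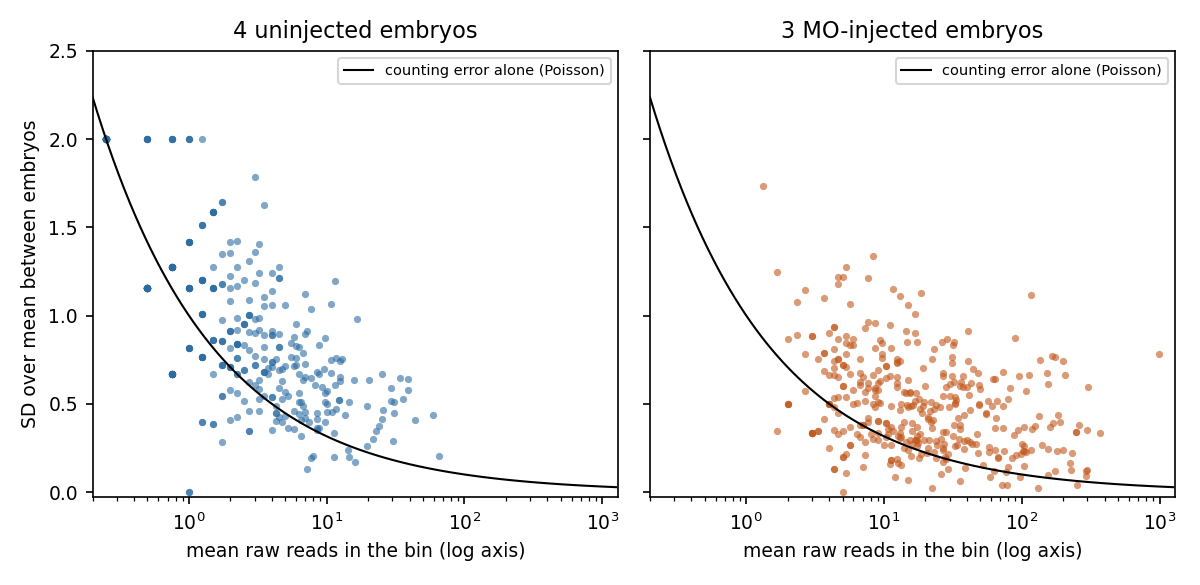
SD over mean between embryos (vertical axis) against the mean raw reads of the bin (horizontal log axis) for the 379 medium bins, in 4 uninjected embryos (left) and 3 MO-injected embryos (right), with the line that counting error alone gives. Of the bins, 86 lie below the line on the left and 66 on the right, and the point furthest right in the right panel is itgb1. Counts were not scaled to embryo totals.

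The lowest injected count was in MO1 in 184 members, in MO2 in 115 and in MO3 in 60, with ties left out, and the highest was in MO3 in 173. Leaving out MO3 moved the raw ratio by over 1.5 times in 38 members, leaving out MO2 in 20 and leaving out MO1 in 14. In 252 members with an injected mean of at least 10 reads, the highest embryo was under 2 times the lowest in 108 and over 5 times the lowest in 39. Of those 39, MO1 was lowest in 30, MO2 in 6 and MO3 in 3. In dido1, whose product binds chromatin, bin E007 had 20, 65 and 264 reads against 0, 0, 2 and 5, and in pgp, phosphoglycolate phosphatase, bin E003 had 19, 85 and 117 against 0, 0, 4 and 3. MO1 was lowest and MO3 highest in both. MO1 also had the smallest sum of reads over the members, and the part of sequencing depth in this was not tested.

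Among members with a mean of at least 10 uninjected reads, those most alike between uninjected embryos were ndufa11, a subunit of respiratory complex I, with 20, 14, 15 and 15 reads in bin E003 (SD over mean 0.169), actr3 E005 and E004, itgb1 and hmha1. In hmha1 bin E003, in a gene for a GTPase-activating protein, the counts were 22, 12, 23 and 21 against 68, 73 and 73. Among the least alike were igf2bp3 with 13, 1, 26 and 3 reads (SD over mean 1.06), ralgds with 3, 13, 10 and 40, tpd52 with 22, 9, 15 and 1, and puf60. In ralgds, an exchange factor for Ral, UC4 exceeded MO1, which had 38 reads beside 50 and 178 in the others.

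In the authors' deposited gene-level table for stage 15, 61 of the 336 host genes (18.2%) were listed as changed in level. Of the 1046 hosts of all listed stage 15 bins, 169 (16.2%) were listed there, a share near that of the members' hosts. The header does not name the direction of these fold changes, and it was chosen so that the ratios of bins and genes went together, which is no independent support for it. In that direction 46 hosts were lower and 15 higher in MO-injected embryos, and with the direction turned the 46 would be the higher ones. Lower genes were thus 13.7% of the hosts and higher genes 4.46%, where the list covers 7.22% and 5.93% of at least 15917 tested genes. Of the listed hosts 75.4% were lower, compared with 54.9% of the whole gene list and with 66.7% of 108 listed genes that hosted only other bins. With the direction turned, these 3 shares would be those of higher genes.

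The values by host level are a description, since their order is fixed by that choice of direction. The 52 members in lower hosts had a median raw log2 ratio of 1.07, and 9 of them (17.3%) were separated. The 20 members in higher hosts had 4.57, with all 20 separated. The 307 in hosts on neither list had 2.66, with 241 (78.5%) separated. Of all members 71.2% were separated, and of all listed bins 75.5%. All 7 members with a raw ratio under 1 were in lower hosts, namely sox10, kcnn3 (2 bins), tspan18, aadat, egfl7 and Xetro.K02089. In sox10, a transcription factor of the neural crest, bin E001 had 20, 4 and 13 reads in MO-injected and 74, 14, 35 and 34 in uninjected embryos, fewer after injection, while its deposited usage ratio was 1.14 on the log2 scale and the host's deposited log2 fold change -3.77 (SE 0.445).

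**Figure D5:**
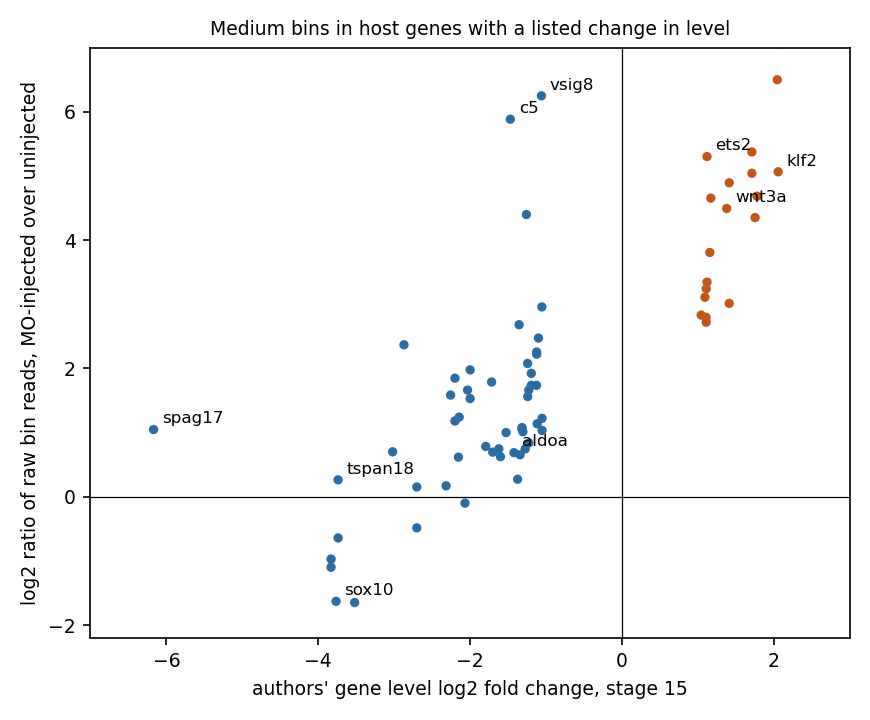
Raw log2 ratio of bin reads, MO-injected over uninjected (vertical axis), against the authors' deposited gene-level log2 fold change at stage 15 (horizontal axis) for the 72 medium bins in the 61 listed host genes, lower hosts in blue and higher hosts in orange. The 7 bins below 0 all lie on the left, and 45 bins on the left lie above 0.

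Most members in lower hosts, 45 of 52, had a higher raw mean in MO-injected embryos. The bins of c5 and vsig8 described above lie in hosts with deposited log2 fold changes of -1.47 (SE 0.221) and -1.06 (SE 0.297). The host aldoa was lower at -1.42 (SE 0.161), cd38 at -1.62 (SE 0.402), and cpne3 at -1.34 (SE 0.320), and in each the bin's groups overlapped. The lowest host was spag17, a component of motile cilia, at -6.17 (SE 0.648), and its bin E017 had 2, 4 and 8 reads against 6, 1, 0 and 1.

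Among higher hosts, the zinc finger factor klf2 stood at 2.06 (SE 0.303) and its bin E002 had 50, 17 and 32 reads against 1, 0, 1 and 0. The host znf414 was at 1.78 (SE 0.262), wnt3a at 1.38 (SE 0.270), phox2a at 1.17 (SE 0.239) and ets2 at 1.12 (SE 0.237), all from the authors' deposited table. In phox2a, bin E008 had 5, 47 and 41 reads against 1, 0, 1 and 1, with MO1 near the uninjected embryos.

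At stage 10, 39 of the members (10.3%), in 33 host genes, were listed with the same coordinates, and they made up 17.1% of the 228 bins listed there. The stage 10 list covers 0.14% of at least 162381 tested bins. Of short and long stage 15 bins with an uninjected read, 6.48% and 9.48% were listed at stage 10. All 39 were separated at stage 10, as were 97.4% of all bins listed there, and 36 of them were separated at stage 15, where 71.2% of the members and 75.5% of all listed bins were. The 39 bins were also read more deeply. Their median MO-injected mean at stage 15 was 49.0 reads, against 14.5 in members not listed at stage 10. The part of read number in their separation was not tested.

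In these 39 bins the median density was 0.786 reads per 100 bases in uninjected and 7.81 in MO-injected embryos at stage 10, and 1.39 and 16.4 at stage 15. The depth of the libraries at either stage is unknown, so the levels are given side by side. The median raw log2 ratio was 3.06 at stage 10 and 3.65 at stage 15, and it was the same to 2 decimals at stage 10 when the 5 bins without an uninjected read were set to 3 reads over the group. In the 34 bins with an uninjected read at stage 10 the ratio was larger at stage 15 in 24 and at stage 10 in 10, with no test of that difference.

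The bins of ets2 were among those with the larger ratio at stage 10. Bin E009 had 356, 418 and 276 reads in MO-injected and 2, 2 and 2 in uninjected embryos at stage 10, and bin E007 had 589, 663 and 433 against 42, 33 and 26. The authors' deposited table gives 2 retained introns in ets2 and 1 in tfap4 at stage 10. In tfap4, which encodes the transcription factor AP-4, bin E005 had 176, 227 and 175 against 4, 6 and 6 at stage 10, and 323, 271 and 288 against 4, 0, 15 and 10 at stage 15. The groups were apart at both stages in these bins of ets2 and tfap4.

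Bin E005 of ctdsp2 had 1, 5 and 5 reads at stage 10 against none in 3 uninjected embryos, so its ratio there is not set beside that of stage 15. In cdc6 the same bin had 93, 62 and 69 reads at stage 10 against 1, 1 and 7, and in cdk12, a kinase of the RNA polymerase II C-terminal domain, bin E015 had 110, 74 and 112 against 21, 17 and 19 at stage 10 and 87, 99 and 134 against 6, 3, 7 and 11 at stage 15. The groups were apart at both stages in all 3 genes. The Notch ligand jag1 had 15, 14 and 24 reads at stage 10 with none in the uninjected embryos. In aldoa the bin had 10, 6 and 9 reads at stage 10 against 1, 0 and 2, so that its groups were apart there and overlapped at stage 15.

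Of the 336 hosts, 11 were in the authors' deposited gene-level list of stage 10, 4 higher and 7 lower, which is 1.19% and 2.08% of the hosts beside 0.95% and 1.23% of at least 13372 tested genes. In all, 3.27% of these hosts were on that list, and 3.15% of the 1046 hosts of all listed stage 15 bins. The higher ones were cdc6 at 0.70, tfap4 at 0.66, golph3 at 0.62 and tyk2 at 0.49 on the log2 scale. Among the lower ones were c5 at -2.04, myt1 at -1.98, cpne3 at -1.47 and aldoa at -0.77, and ctdsp2 stood at -0.51 (SE 0.0900). The stage 10 list has no floor for the fold change, whereas the stage 15 list holds only genes changed at least 2-fold. The numbers of hosts on the lists are therefore not compared between stages. Ctdsp2 was not on the stage 15 list, which a change as small as -0.51 could not enter.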

How the data were processed

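Per the labels, polyadenylated RNA of 13 single embryos was sequenced. Per the submitters' processing notes, TopHat, Bowtie, Cufflinks, Cuffdiff, DESeq and DESeq2 were used, with no version or role. Build, annotation and aligner settings were not stated. Per the file headers, the authors deposited for each listed bin raw counts per embryo, their mean (a signal), fitted usage scores, the log2 ratio of these scores, and p-values before and after adjustment. For each listed gene they deposited the mean normalised count, p-values and a log2 fold change with its error. In c5, aldoa, cpne3 and Xetro.G01392, hosts on the gene lists of both stages, this mean was identical at both. It was therefore not a mean over the embryos of either stage alone, and whether both lists come from a joint fit is not stated. All listed bins had an adjusted p under 0.1 and at least 2-fold higher usage after injection. Listed genes had an adjusted p under 0.1, with a floor of 2-fold at stage 15 and none at stage 10. The sign of the deposited usage ratio, control over MO-injected, was reversed here. The stage 15 count columns are named for stage 10 and were used as stage 15, as their fitted columns are named. The direction of the gene-level folds, with no name in the headers, was set so that positive is higher in MO-injected embryos, since the bin and gene ratios then had a Spearman correlation of 0.70 over 169 genes at stage 15 and 0.71 over 11 genes at stage 10. The authors' count of retained introns was copied as it stands, and how it was made was not stated.

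The repeated header row was left out, and bins of 150 to under 600 bases with at least 1 uninjected read were kept. Reads per 100 bases are raw counts over bin width, with no correction for depth, which is unknown. The exact 95% intervals given for ratios of bins with 1 to 3 uninjected reads take no account of depth. They belong to ratios of means without an added 0.5. Raw ratios are ratios of group means plus 0.5. The groups are separated where the lowest injected count exceeds the highest uninjected count. Stage 10 bins were matched by identical coordinates. No test was made between the groups, and each adjusted p-value comes from the authors' deposited table. The number of tested bins and genes is the lower bound that the Benjamini-Hochberg relation gives. Of the 336 host genes, 272 had a match by symbol or synonym in the RefSeq table of the assembly UCB_Xtro_10.0, whose coordinates were not used.

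Named bins were those with the 10 smallest adjusted p, the 8 highest densities in either group, hosts with 3 or more members, up to 12 bins listed at both stages, the 4 smallest adjusted p of each of 15 role lists, bins at the width limits, 4 bins with 1 uninjected read, members in the genes pax8 and ctdsp2, and the 5 largest and 5 smallest spreads between uninjected embryos at a mean of at least 10 reads. Identifiers of the Xetro form were mostly left unnamed, and 1 bin that this rule names is not reported here. Genes outside this rule that are named are dido1, pgp, klf2, znf414, phox2a, sox10, kcnn3, tspan18, aadat, egfl7, golph3 and tyk2, and they were chosen after their values were seen. The members and the lists were chosen with earlier results of these data known. Width limits, the read minimum, the pseudocount, scaling, the averaging of embryos and the leaving out of each embryo were varied. The spread and the bounds were tested on simulated data. Python 3.11.15, numpy 2.4.6, pandas 2.3.3, scipy 1.17.1 and matplotlib 3.10.9 were used.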

Additional observations from a re-analysis of the deposited data

Results flagged for a closer look

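Over 101 groups of 4 uninjected embryos, made up of the embryo summaries and the named bins, 18 had 1 embryo whose gap to the next was larger than Dixon's 95% critical value for the share of the whole range. Chance alone gives about 1 in 20 groups for values on a continuous scale, a rate that does not hold for counts this low, where many embryos tie. A bin with a single uninjected read always gives a gap of 1.0, and 6 of the named bins are of this kind. In 14 of the 18 the other 3 embryos were equal, so that the gap was 1.0 of the range.

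The median reads per member were 2, 1, 2 and 2 in UC1 to UC4, a gap of 1.0. A gap of 1.0 was also found for the uninjected reads of trmt61b E002, dnajc5g E001, sos1 E001, wnt3a E003, tgfbr3 E015, rnf114 E009, tmem163 E005, adamts4 E009, nrcam E033, ccnf E026, exoc2 E007, pelp1 E006 and efr3b E020. In these 13 bins the embryo that stood apart had between 0 and 4 reads. In dnajc5g it was UC2, with 3 reads against 1 in each of the others, and in nrcam it was UC4, with 4 against 0.

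The remaining 4 had larger counts or unequal neighbours. Bmper E003 had 11, 12, 12 and 4 reads in UC1 to UC4, a gap of 0.875 set by UC4. Irx2 E007 had 11, 4, 5 and 5, a gap of 0.857 set by UC1, and spag17 E017 had 6, 1, 0 and 1, a gap of 0.833 set by UC1. Ndufa11 E003 had 20, 14, 15 and 15, a gap of 0.833 set by UC1. No column stood apart in all of these bins.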

How the results depend on the processing

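With widths of 100 to under 800 bases the members numbered 612, with 200 to under 500 bases 232 in 220 host genes, and with at least 10 uninjected reads 180 in 163 host genes. That read minimum moved the median reads per 100 bases to 1.98 in uninjected and 11.97 in MO-injected embryos. It moved the median SD over mean in uninjected embryos to 0.645. Separated members numbered 136 of 180, beside 270 of 379 in the main setting, so their number fell with the size of the set. Taking the median over embryos gave 0.647 reads per 100 bases in uninjected embryos. A pseudocount of 0.1 gave a median log2 ratio of 2.92 and a pseudocount of 1 gave 2.33. Scaling embryos to equal listed reads gave an SD over mean of 0.876. Leaving out 1 embryo gave 0.691 to 0.885 uninjected and 5.75 to 6.30 MO-injected reads per 100 bases, median log2 ratios of 2.42 to 2.68, 277 to 306 separated members, and an SD over mean of 0.866 each time. Of the 46 settings, 29 left the value the same and 17 moved it, by the limit set for each result. For SD over mean that limit was 0, so any change counted as moved. Only the median log2 ratio could have changed sign, and the choice of members favours a positive one. That none reversed is therefore not read as support. Single ratios moved by over 1.5 times in 13 (UC2) to 38 (MO3) members when 1 embryo was left out. No paired analysis was possible because the count columns are not tied to labelled embryos and the result comes from no test. Depth is unknown, so raw ratios between groups may include a difference in it, and members with 1 to 3 uninjected reads have ratios of low precision.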
